A study of Mus musculus with 6 samples.

Results

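Estrogen receptor α works through proteins that carry no estrogen binding of their own, the coactivators and corepressors. Counts of 9 of these coregulator genes were compared between the mouse mammary tumour lines J110 and SSM3, out of 52636 genes counted. The members were taken by name as known coregulators, with earlier results of these data in view. They are the p160 coactivators Ncoa1, Ncoa2 and Ncoa3, the acetyltransferases Crebbp and Ep300, the Mediator subunit Med1, the arginine methyltransferase Carm1, and the corepressors Ncor1 and Nrip1. Another 78 coregulator genes serve as a comparison.

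The study sequenced RNA from 3 biological replicates of each line, in culture and with no treatment. J110 cells came from mice with an AIB1 transgene, a cDNA driven by the mouse mammary tumour virus LTR. The mouse gene of the coactivator AIB1 is Ncoa3. SSM3 cells came from mammary tumours of genetically altered 129SvEv mice. Each group is a single cell line, and the lines were grown in different media with different serum and CO2 levels, so line, strain and culture cannot be told apart. The study calls them biological replicates, but the sources used here do not say whether they were separate cultures, so p-values measure the spread between these libraries, which may be technical.

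When estrogen binds, the receptor exposes a groove that takes up short leucine-rich motifs of the p160 proteins. These in turn bring in CBP and p300, which acetylate histones, and CARM1, which methylates them, while MED1 connects the receptor to Mediator and RNA polymerase II. NCoR1 holds histone deacetylase 3 and acts at receptors without an agonist, and in breast cancer cells it is recruited by tamoxifen-bound receptor. RIP140, the product of Nrip1, binds the estrogen-bound receptor and represses it, and its gene is itself a well-known estrogen target.

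The libraries held from 4200785 to 5416305 counts, read from the 3′ ends of polyadenylated transcripts. The 9 genes took from 0.0785% to 0.0963% of them, and no member had fewer than 61 counts in any library. Counts at a ribosomal RNA locus made up from 15.1% to 17.2% of J110 libraries and from 0.779% to 1.27% of SSM3 libraries, so values are given as CPM, with library sizes scaled by TMM. Of 8 epithelial and luminal markers, Epcam had 2, 1 and 7 counts in the J110 libraries and at least 2376 in SSM3. Elf3 had 1, 1 and 4 counts in J110 and at least 53 in SSM3. Krt8 and Krt18 had at least 6182 and 6777 counts in every J110 library, and Foxa1 had 339, 302 and 309. Krt18 was lower in SSM3, with a mean of 970 CPM against 1430 CPM in J110, and the other markers of this list were higher. The 6 fibroblast markers summed to at most 1.98 CPM in any library. The 6 leukocyte markers summed to between 14.8 and 22.2 CPM in J110 and between 1.19 and 2.004 CPM in SSM3, nearly all of it Cd68, with 115, 95 and 70 counts in J110 and 9, 5 and 6 in SSM3, while Ptprc and the other 4 had at most 2 counts in any library. The 5 endothelial markers summed to between 158 and 181 CPM in J110 and to at most 0.425 CPM in SSM3, nearly all of it Cdh5, while Kdr had 8, 11 and 6 counts in J110 and none in SSM3, Pecam1 had at most 4, Tek at most 1 and Tie1 none in any library. What part other cell types have in the results was not tested.

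The AIB1 transgene gave no check of the labels. The libraries labelled J110 held fewer Ncoa3 counts than those labelled SSM3. Neither the 3′ end nor the species of the transgene is given in the sources used here, so its reads may not count under Ncoa3. Epcam (above) and Esr1 were higher in the libraries labelled SSM3, and Pgr, which encodes the progesterone receptor, had 0, 0 and 2 counts in J110 libraries and 1638, 1859 and 1719 in SSM3 libraries.

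Of the 9 coregulators, Ncoa3, Nrip1 and Ncor1 were higher in SSM3 and Crebbp was lower, with an adjusted p below 0.05 in edgeR's quasi-likelihood test. No difference could be called for Ncoa1, Ncoa2, Ep300, Med1 and Carm1. Fewer cells with a transcript and less of it per cell cannot be told apart in RNA pooled over a culture, and transcript counts say nothing of protein. Among the 12284 genes tested, 77.9% were called, 38.6% as higher and 39.2% as lower in SSM3, so 4 of 9 is a smaller share than the background. None of the 9 was called at a 2-fold change or more, where 43.7% of all genes were, 21.2% as higher and 22.5% as lower. That count was also 0 at an unadjusted p below 0.05 in edgeR, and 0 with DESeq2 and with limma-voom, but with library size only it was 2 (Ncoa3 and Nrip1). The median absolute log2 fold change was 0.19 over the 9 members and 0.84 over all genes, and the signed medians were 0.095 and -0.014. CPM of the lines did not overlap for 5 of the 9, against 79.6% of all genes.

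**Figure D1:**
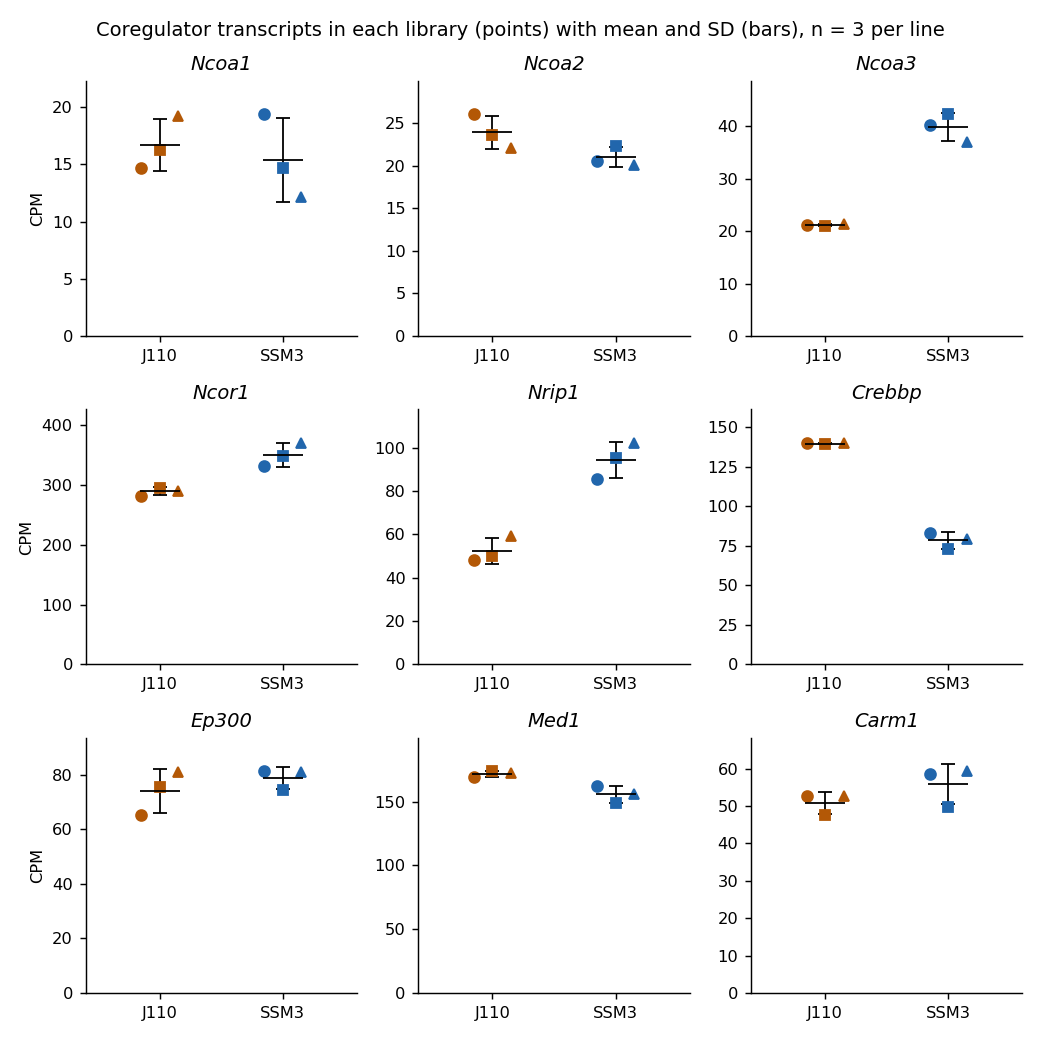
CPM (vertical axes, from 0) of the 9 coregulators in each library of J110 (brown) and SSM3 (blue). Circles are replicate 1, squares replicate 2 and triangles replicate 3, and bars give the mean and SD (n = 3). Ncoa3, Nrip1 and Ncor1 lie higher in all 3 SSM3 libraries, Crebbp and Med1 lie lower, and the points of Ncoa1, Ncoa2, Ep300 and Carm1 overlap.

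Ncoa3 was the p160 gene that could be called. Ncoa3 (ENSMUSG00000027678), which encodes the coactivator AIB1 that is often amplified in breast cancer, was counted at 21.2, 21.0 and 21.3 CPM in J110 and at 40.3, 42.3 and 37.0 CPM in SSM3. Every SSM3 library lay above every J110 library, by more than the spread within either line. The fold was 1.88 (95% interval 1.58 to 2.24, adjusted p of 2.94e-06 by edgeR), which is 0.91 ± 0.12 (standard error) on the log2 scale.

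The last 154 bases of Ncoa3, on chromosome 2 of mm10 from 166073089 to 166073242, are also exon of Sulf2 on the opposite strand. Both genes end there, and libraries of this kind read ends. One of the 2 coding transcripts of Ncoa3 stops inside the shared stretch. Sulf2, which encodes a heparan sulfate endosulfatase, was counted between 3.18 and 5.49 times as often as Ncoa3 in every library, and was 3.00-fold higher in SSM3 (1.58 ± 0.082, standard error, on the log2 scale). The part of Sulf2 reads in the Ncoa3 difference was not tested.

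Ncoa1 (ENSMUSG00000020647, chromosome 12), which encodes SRC-1, was counted at 14.7, 16.2 and 19.2 CPM in J110 and at 19.4, 14.7 and 12.1 CPM in SSM3. The lines overlapped throughout, and Ncoa1 had the widest spread of the members, with a coefficient of variation of 23.9% in SSM3. Its fold had a 95% interval from 0.701 to 1.21, so changes within that range cannot be told from none. Ncoa2 (ENSMUSG00000005886, chromosome 1), which encodes GRIP1, was counted at 26.0, 23.5 and 22.1 CPM in J110 and at 20.5, 22.3 and 20.1 CPM in SSM3. Its highest SSM3 library lay just above its lowest J110 library, and the 95% interval of the fold ran from 0.718 to 1.07. Neither passed the edgeR test, with adjusted p of 0.557 for Ncoa1 and 0.208 for Ncoa2.

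Within a library the balance between paralogues does not depend on scaling. Ncoa3 made up 34.3%, 34.5% and 34.0% of the counts on the 3 p160 genes in J110 and 50.3%, 53.4% and 53.4% in SSM3. The mean share was 34.3% ± 0.264 in J110 and 18.1 percentage points higher, at 52.4% ± 1.80, in SSM3 (SD, n = 3 each). Ncoa2 gave 38.7% ± 3.36 in J110 and 27.6% ± 1.80 in SSM3, and Ncoa1 27.0% ± 3.51 and 20.1% ± 3.59 (SD, n = 3 each). The Ncoa1 share overlapped between the lines. The exact two-sided permutation test of the Ncoa3 share gave p = 0.1, the smallest that 3 libraries against 3 allow. The same p came from each of the 3 balances tested in this way, and the Benjamini-Hochberg adjusted value over the 3 is 0.1 as well. The overlap with Sulf2 applies to this share too.

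**Figure D2:**
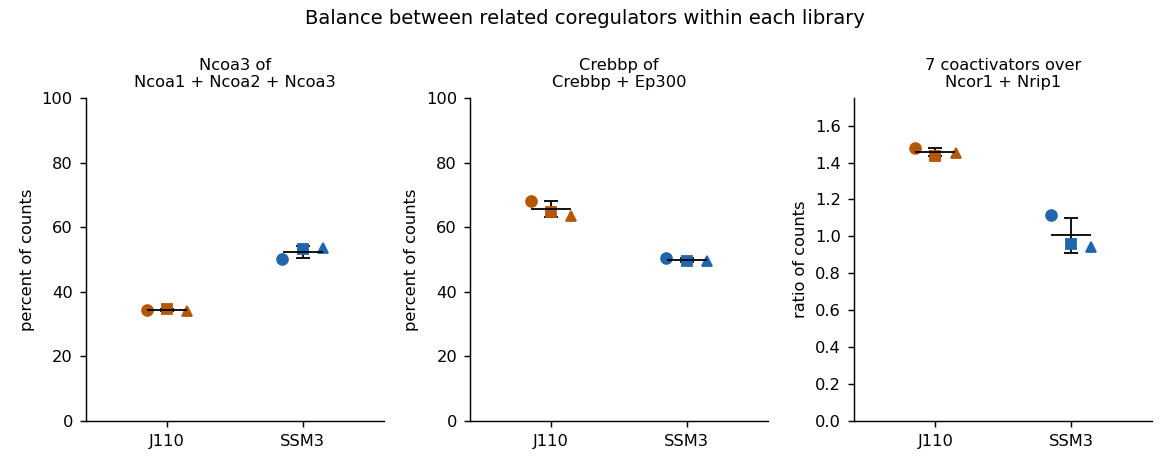
Balance of related coregulators within each library, as percent of counts (left and middle panels) or a ratio of counts (right panel), for J110 (brown) and SSM3 (blue). Symbols mark replicates 1 (circle), 2 (square) and 3 (triangle), with mean and SD (n = 3). None of the 3 balances drawn overlaps between the lines, where CPM of 79.6% of all genes did not overlap. The Ncoa3 share is 18.1 percentage points higher in SSM3.

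Of the paralogous acetyltransferases, Crebbp differed between the lines, and no difference could be called for Ep300. Crebbp (ENSMUSG00000022521, chromosome 16 from 4081328 to 4213997), which encodes CBP, was counted at 140, 139 and 140 CPM in J110 and at 82.8, 72.8 and 79.6 CPM in SSM3. All SSM3 libraries lay far below the J110 libraries. The J110 libraries had a coefficient of variation of 0.353%, where edgeR put the biological coefficient of variation over all genes at 8.30%. The 0.353% should therefore not be read as the precision of the counts. The fold was 0.561 (95% interval 0.497 to 0.634), or -0.83 ± 0.083 (standard error) in log2 units, and edgeR gave an adjusted p of 1.04e-07. Crebbp was the member called lower, and it shares no exon with another counted gene.

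Ep300 (ENSMUSG00000055024, chromosome 15), which encodes p300, was counted at 65.2, 75.6 and 81.0 CPM in J110 and at 81.3, 74.3 and 81.0 CPM in SSM3. J110 replicate 1 was the low library, without which the log2 fold change moved from 0.095 to -0.0012, and the others lay between 74.3 and 81.3 CPM in both lines. The 95% interval of the fold was 0.928 to 1.23, with an adjusted p of 0.374 from the edgeR test. With library size only, the log2 fold change of Ep300 was 0.27 with an adjusted p of 0.0133 in that test. Crebbp was 68.2%, 64.8% and 63.4% of the joint counts of Crebbp and Ep300 in J110 and 50.5%, 49.5% and 49.6% in SSM3. The share was lower in SSM3 by a mean of 15.6 percentage points (65.5% ± 2.47 against 49.8% ± 0.546, SD, n = 3 each, exact two-sided permutation test p = 0.1, again the smallest possible).

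Med1 and Carm1 are the members that connect receptor and histones to transcription. Med1 (ENSMUSG00000018160, chromosome 11 from 98152154 to 98193293), the Mediator subunit that nuclear receptors contact, was counted at 169, 174 and 172 CPM in J110 and at 163, 149 and 156 CPM in SSM3. The 3 SSM3 libraries lay below the 3 J110 libraries, but the gap was small, and the log2 fold change of -0.14 (standard error 0.074) had an adjusted p of 0.0906 in the edgeR test. The 95% interval of the fold was 0.813 to 1.01. Without TMM the log2 fold change of Med1 was 0.034, and with library sizes that leave out the ribosomal RNA locus it was -0.20 with an adjusted p of 0.019 from the same test.

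For Carm1 (ENSMUSG00000032185, chromosome 9 from 21546894 to 21592623) the table cannot separate the gene from its neighbour. Carm1 was counted 273, 240 and 252 times in J110 and 263, 234 and 298 times in SSM3. Yipf2, a gene of Golgi membrane traffic on the opposite strand, was counted 276, 240 and 250 times in J110 and 261, 233 and 303 times in SSM3. The counts of the genes differed by at most 1.65% in any library. Carm1 and Yipf2 share 1025 exon bases, which is 21.1% of the exon bases of Carm1, and all 4 coding transcripts of Carm1 end in shared exon. How many of the reads came from Carm1 cannot be told from these counts.

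The value listed for Carm1 had a mean of 50.9 CPM (SD 2.97, n = 3) in J110 against 55.9 CPM (SD 5.35, n = 3) in SSM3, and edgeR gave an adjusted p of 0.23, which became 0.0102 with library size only, at a log2 fold change of 0.31 in place of 0.13. Of the 87 coregulators (9 members and 78 others), 35 share exon bases with another counted gene, 5 of them members. In 4 of the 87 the counts lay within 10% of the partner's in every library. Beside Carm1 these were the Mediator subunits Med10 with Gm26819, Med12 with Gm21986 and Med26 with Gm17435. Of the other members, Nrip1, Crebbp, Ncoa2 and Med1 share no exon, and the overlaps of Ncoa1, Ncor1 and Ep300 cover 68, 83 and 54 bases. Of the 15 coding transcripts of Ncor1, 2 end in shared exon. Its partners Ttc19 and Pigl had at most 212 and 37 counts in any library. The partner of Ncoa1, 4921501I09Rik, had at most 6 counts, and that of Ep300, Gm23880, had 0.

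**Figure D3:**
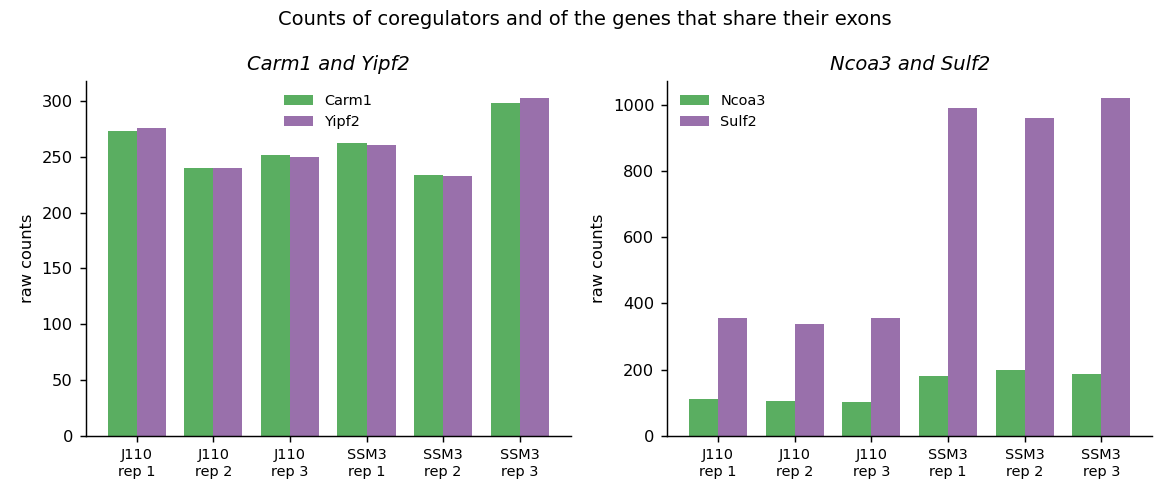
Raw counts (vertical axes, from 0) of Carm1 and Yipf2 (left) and of Ncoa3 and Sulf2 (right) in each library. Carm1 (green) and Yipf2 (purple) differ by at most 1.65% in a library, whereas Sulf2 (purple) has more counts than Ncoa3 (green) in every library and both are higher in SSM3.

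Both corepressor members were called higher in SSM3, as were 38.6% of all genes tested. Nrip1 (ENSMUSG00000048490, chromosome 16 from 76287400 to 76373827) was counted at 48.2, 49.8 and 59.3 CPM in J110 and at 85.5, 95.3 and 102 CPM in SSM3. The lowest SSM3 library was well above the highest J110 library. The fold was 1.80, or 0.85 in log2 units (95% interval 0.63 to 1.07, adjusted p = 1.06e-06 by edgeR). Nrip1 shares no exon with another counted gene.

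RefSeq promoters were read for the members, of which Ncoa1, Ncor1, Nrip1, Crebbp, Ep300 and Med1 had entries. The 250 bases before the start are shown for both starts of Nrip1, as the called gene with 2 starts outside annotated exons, and for Ncoa1, which was not called, beside them. All are on the reverse strand of GRCm38 (mm10), written 5′ to 3′ in the direction of transcription, with the GC box (GGGCGG or its complement CCGCCC) in capitals.
Nrip1, upstream start, chr16:76373828-76374077: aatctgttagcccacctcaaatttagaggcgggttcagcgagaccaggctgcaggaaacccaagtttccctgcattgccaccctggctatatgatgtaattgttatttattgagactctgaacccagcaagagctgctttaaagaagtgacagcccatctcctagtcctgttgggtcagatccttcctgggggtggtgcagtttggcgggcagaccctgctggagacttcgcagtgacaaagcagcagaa
Nrip1, downstream start, chr16:76373050-76373299: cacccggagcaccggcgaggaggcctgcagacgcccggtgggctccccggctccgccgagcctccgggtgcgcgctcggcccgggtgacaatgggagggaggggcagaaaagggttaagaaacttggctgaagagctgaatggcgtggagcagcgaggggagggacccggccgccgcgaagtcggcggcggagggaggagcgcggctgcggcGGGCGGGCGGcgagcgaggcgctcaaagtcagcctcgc
Ncoa1, chr12:4477183-4477432: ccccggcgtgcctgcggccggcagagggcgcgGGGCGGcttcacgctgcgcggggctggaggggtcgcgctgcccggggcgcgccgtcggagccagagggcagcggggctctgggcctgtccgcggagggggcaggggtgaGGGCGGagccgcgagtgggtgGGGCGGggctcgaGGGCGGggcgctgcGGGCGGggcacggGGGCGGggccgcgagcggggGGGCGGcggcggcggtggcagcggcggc
The window before the upstream start of Nrip1 held no GC box and had 51.2% G and C, close to the median of 52.4% over the 32851 promoters of the table. The downstream start had 2 overlapping GC boxes and 73.6% G and C, and Ncoa1 had 7 GC boxes and 85.6%. The windows of Crebbp, Ep300 and Med1 held 2, 1 and 1 GC boxes, and the 2 windows of Ncor1 held 0 and 2. A GC box was found in 32.7% of all promoters. The full estrogen response element, searched on both strands as GGTCA and TGACC with any 3 bases between them, was in none of the 8 windows of these 6 members, and in 21 of all promoters (0.0639%). Its half-site AGGTCA was not in these windows either, and was in 4607 of all promoters. These are matches of letters in short windows, and estrogen receptor binding was not measured here.

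Ncor1 (ENSMUSG00000018501, chromosome 11 from 62316426 to 62458541) was counted at 282, 296 and 291 CPM in J110 and at 332, 348 and 371 CPM in SSM3. The ranges did not overlap, although the difference was modest, at a fold of 1.21 (95% interval 1.09 to 1.34). In log2 units this was 0.27 ± 0.070 (standard error), and edgeR gave an adjusted p of 0.00194.

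Summed over members, coactivator counts were 1.48, 1.44 and 1.45 times the corepressor counts of Ncor1 and Nrip1 in J110. In SSM3 the ratio was 1.12, 0.958 and 0.940. The log2 ratio was lower in SSM3 by a mean of 0.54 (exact two-sided permutation test p = 0.1), with SSM3 replicate 1 nearest to J110. Ncor1 and Med1 hold much of these sums, so the ratio describes transcripts counted and not the activity of either class.

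**Figure D4:**
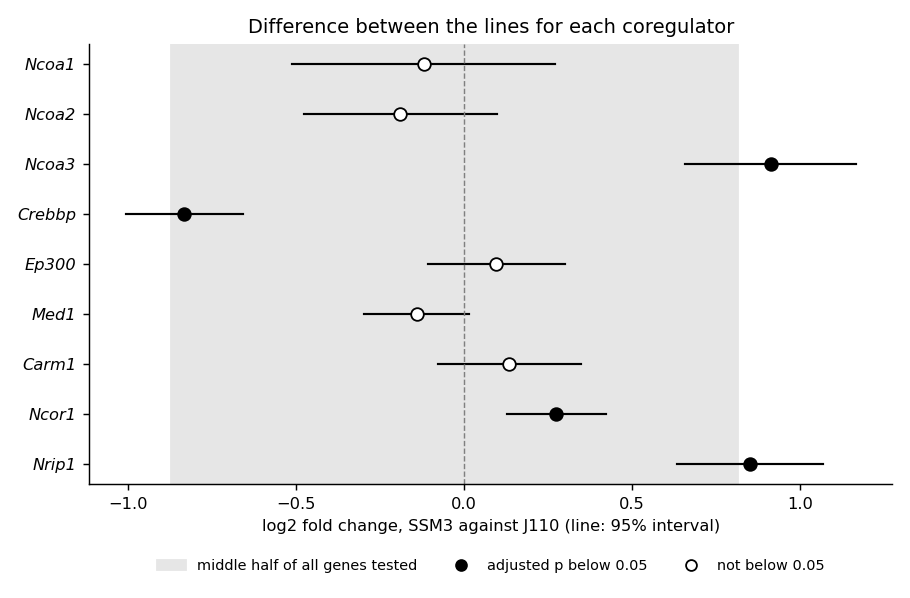
Log2 fold change of SSM3 against J110 (horizontal axis) for the 9 coregulators, with 95% intervals as lines and filled points where the adjusted p was below 0.05. The grey band runs between the quartiles of all genes tested, from -0.87 to 0.81. Ncoa3 and Nrip1 lie just right of the band, and Crebbp lies just inside its left edge.

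Esr1, which encodes ERα, was counted at 5.98, 2.97 and 2.09 CPM in J110 and at 49.4, 37.2 and 38.4 CPM in SSM3, and without J110 replicate 1, the highest of that line, its log2 fold change moved from 3.48 to 4.01.

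The other coregulators were compared by complex. Of 74 that could be tested among the 78, 29 were higher and 25 lower in SSM3, which is 73.0% against 77.9% of all genes. At a 2-fold change or more 6 were higher and 13 lower, where 21.2% of all genes were higher and 22.5% lower. With library size only the calls at any size were 35 higher and 22 lower, and of the 9513 calls over all genes 5373 were higher (56.5%). Their median absolute log2 fold change was 0.54, between that of the 9 members (0.19) and that of all genes (0.84).

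Of the 4 listed partners of NCoR1 in its complex, 2 were higher and 2 lower in SSM3, with a median log2 fold change of -0.091, where 77.9% of all genes were called in one direction or the other. Tbl1xr1, an exchange factor that releases corepressors, rose from 37.4 ± 1.38 to 69.8 ± 8.55 CPM (SD, n = 3 each). Gps2 was also higher, from 46.0 ± 6.18 to 61.1 ± 7.01 CPM. Hdac3, the deacetylase of the complex, went the other way, from 28.0 ± 1.89 CPM in J110 to 17.4 ± 0.969 CPM in SSM3, as did Tbl1x, the paralogue of Tbl1xr1, from 76.1 ± 5.85 to 50.7 ± 3.01 CPM (SD, n = 3 each). The signs within the complex were therefore mixed.

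Of the 12 other corepressors tested, 1 was higher and 6 were lower in SSM3, with a median log2 fold change of -0.29. This is 58.3% called, against 77.9% of all genes (38.6% higher and 39.2% lower). Ctbp2, a corepressor that binds RIP140, had the largest of these changes, 217 ± 16.7 CPM in J110 against 81.2 ± 3.42 CPM in the SSM3 libraries (SD, n = 3 each). Ctbp2 shares 314 exon bases with Fgfr2, which had at most 9 counts in J110 libraries and at least 562 in SSM3 libraries. None of the 12 coding transcripts of Ctbp2 ends in shared exon. Phb2, a repressor of the estrogen receptor in the nucleus and otherwise a mitochondrial protein, was higher at 311 ± 9.58 CPM against 214 ± 18.0 CPM.

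Of the other Mediator subunits, 31 of 32 could be tested, with 13 higher and 10 lower in SSM3 and a median log2 fold change of 0.092. The share called was 74.2%, near the 77.9% of all genes. At a 2-fold change or more 1 was higher and 6 were lower, where 21.2% of all genes were higher and 22.5% lower by that measure. Med30, a subunit of metazoan Mediator, was counted at 17.2, 20.6 and 17.5 CPM in J110 and at 5.12, 4.46 and 1.99 CPM in SSM3. This was -2.27 ± 0.25 (standard error) on the log2 scale, and edgeR gave an adjusted p of 3.86e-07. Med20, a subunit of the head module, rose from 12.9 ± 1.12 CPM to 30.9 ± 2.81 CPM (SD, n = 3 each). It shares 1569 exon bases with Kpna2-ps, which had at most 2 counts in any library, and 513 with Gm20517, which had between 7 and 25. Mediator subunits lay on both sides of Med1, whose own 95% interval stayed within 2-fold.

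Among the enzymes that work with the p160 proteins, 4 of 5 acetyltransferase partners were higher, with a median log2 fold change of 0.94. The share called, 80.0%, is near the 77.9% of all genes, of which 38.6% were higher. Tada3, an adaptor of GCN5 and PCAF complexes, rose from 9.10 ± 3.18 CPM to 42.8 ± 4.67 CPM (SD, n = 3 each). The acetyltransferases Kat2b, Kat2a and Kat5 had log2 fold changes of 1.21, 0.55 and 0.94. Kat5 shares 426 exon bases with Rnaseh2c, which had 304, 284 and 256 counts in J110 and 885, 876 and 954 in SSM3, more than Kat5 in every library. Of the 6 coding transcripts of Kat5, 4 end in shared exon, and the part of Rnaseh2c reads in the Kat5 difference was not tested. Without J110 replicate 2 the log2 fold change of Kat2a was 0.40, with an adjusted p of 0.0681 in the edgeR test. Trrap, the scaffold of these complexes, had a log2 fold change of 0.17 and was not called (adjusted p = 0.197). Of 5 arginine methyltransferases beside Carm1, Prmt1 was higher, at 490.2 ± 84.6 against 248 ± 24.9 CPM, Prmt2 was lower, at 31.4 ± 1.40 against 47.2 ± 3.76 CPM (SD, n = 3 each), and 3 were not called, so that 40.0% were called against 77.9% of all genes.

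The other Ncoa genes carry the name but are not p160 proteins, and all 4 were called, where 77.9% of all genes were. Ncoa5 and Ncoa6 were higher, Ncoa5 from 30.8 ± 3.12 to 49.7 ± 4.07 CPM, and Ncoa7 and Ncoa4 were lower, Ncoa4 from 3.81 ± 0.554 to 1.49 ± 0.446 CPM (SD, n = 3 each). Of 13 other coactivators tested, 6 were higher and 4 lower (76.9% called, near the 77.9% of all genes), with a median log2 fold change of 0.23. Cited1, which binds CBP and p300 and coactivates the estrogen receptor, had the largest change of the coregulators tested. Its J110 libraries held 5, 2 and 14 counts, and its SSM3 libraries 3200, 3049 and 3390, which is 8.90 ± 0.19 (standard error) in log2 units (adjusted p = 5.91e-16 by edgeR). Without J110 replicate 3, which held most of the J110 counts, it was 9.89. Pnrc2, a small nuclear receptor coactivator, fell from 66.7 ± 2.04 to 21.8 ± 1.55 CPM (SD, n = 3 each).

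**Figure D5:**
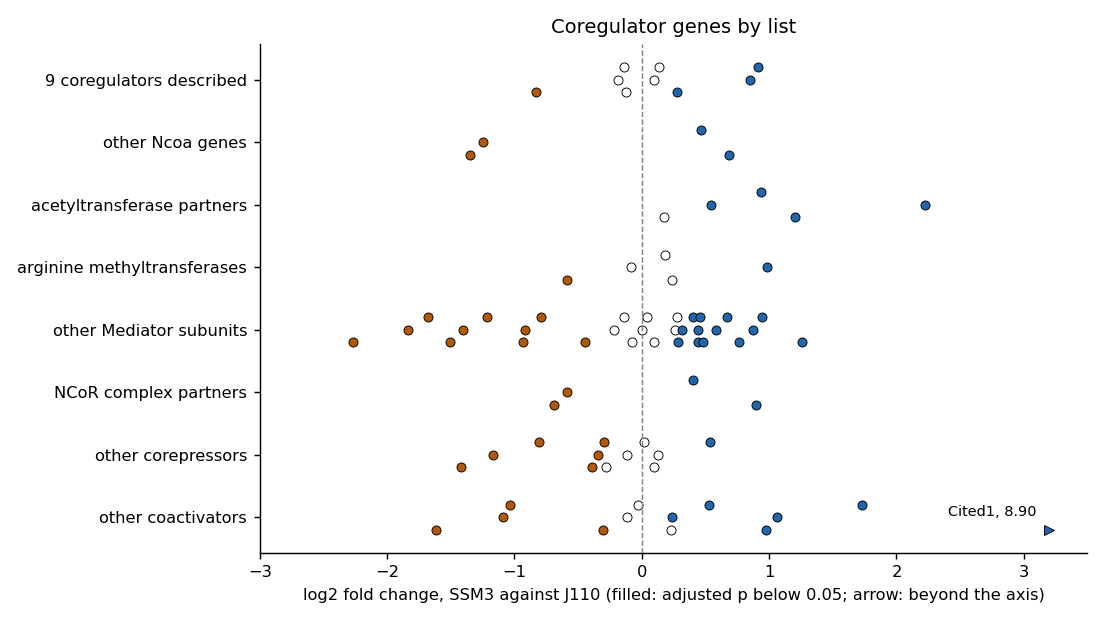
Log2 fold change of SSM3 against J110 (horizontal axis) for each coregulator tested, by list (vertical axis; offsets within a list only separate points). Filled points had an adjusted p below 0.05, blue where higher and brown where lower in SSM3. The 9 coregulators lie between -0.83 and 0.91, whereas Med30 reaches -2.27 and Cited1, drawn as an arrow beyond the axis, 8.90.

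The sources used here mention no molecular identifiers or removal of duplicate reads, so the intervals cover the spread between libraries, counting error included, and no bias of amplification.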

How the data were processed

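RNA of 3 J110 and 3 SSM3 samples was made into libraries with a QuantSeq 3′ kit. The authors trimmed the reads with cutadapt (2.1), mapped them to mm10 with HISAT2 (2.0.4), counted them per gene with featureCounts (Subread 2.0.0) and deposited raw counts. Strand setting, annotation release and the treatment of reads over several genes are not given in the sources used here. Med10 and Gm26819, which lie on opposite strands and share 4168 exon bases, had equal counts in every library. Of 52636 identifiers, 52489 (99.7%) matched GENCODE M21 (GRCm38), which gave symbols, coordinates and shared exons.

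Low counts were removed by filterByExpr and libraries scaled by TMM, and the 12284 genes left were compared by edgeR's quasi-likelihood test (edgeR 4.0.16, R 4.3.3), with Benjamini-Hochberg adjustment and a threshold of 0.05. Standard errors are the log2 fold change divided by the square root of F. Shares within a library were compared with exact permutation tests (scipy 1.17.1). Library totals were from 4200785 to 5416305, and 1 count was worth from 0.193 to 0.223 CPM. Replicates of a line differed by more than sampling noise (chi-square per degree of freedom from 2.29 to 6.01). Samples were grouped by the line in their titles.

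The members and the lists of other coregulators were chosen with earlier results of these data known. The named genes were all members, genes that share exons with a member, Esr1, Pgr and markers of cell types. In each list the largest called change in each direction without overlap between the lines was also named. Ncoa6, Ncoa7, Gps2, Tbl1x, Kat2a, Kat2b, Kat5, Trrap, Fgfr2, Rnaseh2c, Kpna2-ps, Gm20517 and the near-equal Mediator pairs were named after their values were seen. Alternatives were other scalings, DESeq2 (1.42.0), limma-voom (limma 3.58.1), other filters, a block for the replicate number, and each library left out in turn. Some genes of the planned comparisons, and a genetic change that the SSM3 mice carry, are not reported here, and other experiments of the study were not analysed here.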

Additional observations from a re-analysis of the deposited data

How the results depend on the processing

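Ncoa3, Nrip1, Ncor1 and Crebbp kept their direction and their call under all 14 alternatives. The number of members called was 4 in 12 of them, 5 without the ribosomal RNA locus and 6 with library size only, which added Ep300 and Carm1, where 5 were higher in SSM3 and 2 (Ncoa3 and Nrip1) reached a 2-fold change. That scaling moved the all-gene median from -0.014 to 0.16 (log2). With library sizes that leave out the ribosomal RNA locus, 2 members were lower. Directions turned for members that were not called. Without TMM the log2 fold change was 0.056 for Ncoa1 and 0.034 for Med1. Leaving out each library in turn gave values from -0.31 to 0.030 for Ncoa1 and from -0.0012 to 0.15 for Ep300. The cause was not tested, beyond the shift of all genes. Of 26 called genes recomputed one by one, 25 kept their call under every alternative in which they were tested, and Kat2a did not. Ncoa4 and Cited1 were not tested with at least 10 counts in every library. The 3 balances within libraries kept their direction throughout, and leaving out Carm1, chosen after seeing the data, gave a difference in the log2 ratio of -0.58 in place of -0.54.

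Same-numbered libraries did not deviate together (correlations of 0.0118, 0.0155 and 0.0268 across genes), so the numbers do not pair them. With the replicate number as a block, 9481 genes were called in place of 9566, with 4 members and 54 other coregulators as before. Among the 9 members the lowest counts were those of Ncoa1, from 61 to 92 per library.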
